A study of Mus musculus with 8 samples.

Results

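The 27 genes described here belong to cholesterol synthesis and its control: 20 enzymes of the route from acetyl-CoA to cholesterol, 6 genes of the SREBP control system and the sterol carrier Stard4. Ggps1, whose product leaves the sterol route, is counted among the 20 enzymes and among those of the mevalonate pathway. They were taken by gene symbol from a table of 42649 genes, and all 27 passed the filter on low counts, as did 17367 genes in all. The source of the RNA was C57BL/6 mice carrying liver metastases of MC38, a mouse colon carcinoma line. Tumour-associated macrophages were sorted from these metastases by flow cytometry as positive for CD45, CD11b and F4/80. One group of 4 mice ate a high-fat diet (HFD) with 60% of its energy from fat, and the other group of 4 mice ate a control diet (CD) with 10%. In both groups the diet began 6 weeks before MC38 cells were injected into the spleen, and the metastases were taken 19 days after the injection. The labels give no age and no genetic change in the mice.

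Cholesterol is built in the endoplasmic reticulum. Mevalonate pathway enzymes make isoprenoid units, squalene is formed from them and closed into lanosterol, and the last enzymes turn lanosterol into cholesterol. The transcription factor SREBP2, encoded by Srebf2, switches on these enzymes when sterol in the membrane is low: Scap carries it to the Golgi, where the proteases encoded by Mbtps1 and Mbtps2 release its active part, and when sterol is high the Insig proteins hold Scap back. In macrophages, which take in cholesterol with the cells and lipoproteins they engulf, this route is known to fall when sterol is plentiful.

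SREBP is known to act through promoter sites, so the promoters were searched for its motif and for those of its known partners NF-Y and Sp1. RefSeq sequences of GRCm38.p6, 250 bases before to 50 bases after the start of a gene, were at hand for 23 of the 27 genes. The promoters of Fdps, Fdft1, Sqle and Stard4 were not at hand and were not searched. The SREBP motif searched was TCACNCCAC, the NF-Y motif CCAAT and the Sp1 motif GGGCGG, each on both strands, and no match of one was removed for lying over another. The 4 sequences below show the only promoter of the 23 genes searched with the SREBP motif (Hmgcs1) and that of the factor itself (Srebf2). They also show that of the gene with the most uneven libraries (Insig1) and that of the gene with the smallest p for diet (Mbtps1). They lie at chr13:119690101-119690400 on the plus strand, chr15:82147019-82147318 on the plus strand, chr5:28071162-28071461 on the plus strand and chr8:119558712-119559011 on the minus strand, in that order. Capitals mark the SREBP motif and the NF-Y motif, which reads ATTGG where it lies on the other strand.
Hmgcs1: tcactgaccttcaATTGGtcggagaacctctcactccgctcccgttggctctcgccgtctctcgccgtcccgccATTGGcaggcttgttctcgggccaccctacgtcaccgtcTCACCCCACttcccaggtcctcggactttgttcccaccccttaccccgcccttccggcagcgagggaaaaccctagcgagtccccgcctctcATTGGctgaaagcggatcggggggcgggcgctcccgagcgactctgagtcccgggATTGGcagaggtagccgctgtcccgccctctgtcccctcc
Srebf2: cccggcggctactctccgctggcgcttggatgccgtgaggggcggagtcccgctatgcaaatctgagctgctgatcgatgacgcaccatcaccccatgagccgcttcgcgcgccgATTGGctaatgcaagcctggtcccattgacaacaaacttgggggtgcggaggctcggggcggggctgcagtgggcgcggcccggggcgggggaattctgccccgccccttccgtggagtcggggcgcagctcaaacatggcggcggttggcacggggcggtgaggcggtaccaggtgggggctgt
Insig1: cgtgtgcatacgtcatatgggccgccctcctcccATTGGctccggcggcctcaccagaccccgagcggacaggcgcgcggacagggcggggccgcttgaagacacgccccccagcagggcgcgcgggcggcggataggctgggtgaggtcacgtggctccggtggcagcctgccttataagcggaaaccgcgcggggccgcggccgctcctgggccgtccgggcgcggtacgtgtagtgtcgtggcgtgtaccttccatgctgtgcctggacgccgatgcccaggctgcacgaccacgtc
Mbtps1: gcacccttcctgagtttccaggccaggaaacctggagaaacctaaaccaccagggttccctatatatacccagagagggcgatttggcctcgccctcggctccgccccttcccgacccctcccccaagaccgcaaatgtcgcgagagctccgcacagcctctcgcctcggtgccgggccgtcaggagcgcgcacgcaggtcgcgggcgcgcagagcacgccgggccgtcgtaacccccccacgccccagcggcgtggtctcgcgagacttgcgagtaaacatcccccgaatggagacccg

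The 9 letters of the SREBP motif stood in the promoter of 1 of 23 genes, Hmgcs1, against 1.44% of the 27025 genes with a RefSeq promoter. Cut to its first 7 letters, TCACNCC, the motif stood in 5 of 23, namely Acat2, Hmgcs1, Insig2, Msmo1 and Srebf2, against 17.6% of all genes. The NF-Y motif stood in 19 of 23 genes, against 41.1% of all. The Sp1 motif stood in 20 of 23, against 38.2% of all. This background was not limited to genes that passed the filter on low counts, as the 23 did, so the 2 sets differ in more than the pathway. The Mbtps1 promoter held no SREBP or NF-Y motif, and that of Insig1 held 1 NF-Y motif. A match is a run of letters, and binding was not measured. Only exact matches were counted, so a promoter without a match may still hold a site with other letters.

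Scaling and cell makeup of the libraries touch every value that follows. Total counts ran from 37180157 to 55717378, and the 27 genes took 8014 to 32302 counts in the HFD libraries and 6727 to 20700 in the CD libraries. TMM scaling, which sets libraries to the same level for most genes, used factors from 0.719 to 2.02 in HFD libraries and from 0.690 to 1.12 in CD libraries, with 2.02 in HFD replicate 1. CD replicates 3 and 4 stood apart: 34495 and 33449 genes had counts there, against 21571 to 23776 in HFD libraries and 23930 and 24556 in CD replicates 1 and 2. The macrophage markers (8 genes) summed to 6509, 13575, 30039 and 41413 CPM in HFD replicates 1 to 4. In CD replicates 1 to 4 the sums were 14999, 13055, 3165 and 2969. Most of the sum in HFD replicate 4 came from C1qa, C1qb and C1qc (8858, 21195 and 8050 CPM). Adgre1, Cd68 and these C1q genes were lowest in CD replicates 3 and 4, but Fcgr1 was highest there (479 and 447 CPM). Adgre1 was at 617 CPM in HFD replicate 1, against 198 and 368 in HFD replicates 2 and 3. The sum is thus not a measure of macrophage content. The neutrophil markers (8 genes) summed to 303 to 7196 CPM in HFD libraries and 1828, 1496, 106860 and 108418 in CD replicates 1 to 4. The sums of Kupffer cell, hepatocyte, T and NK cell and dendritic cell markers did not overlap between the diets. Single genes of these lists differed in this. Vsig4, Alb, Nkg7 and Flt3 overlapped, while Marco, Fgb, Cd3g and Ccr7 did not. Vsig4 was at 26.7 CPM in HFD replicate 1 and at 29.3 in CD replicate 1. Ccr7 alone gave 5.41 to 20.01 CPM of the dendritic cell sum in HFD and 22.3 to 56.9 in CD. The Kupffer sum was 231 to 517 CPM in HFD and 92.3 to 189.6 in CD, and the hepatocyte sum was 16.6 to 42.9 in HFD and 53.3 to 95.7 in CD. The dendritic cell sum was 20.8 to 34.98 in HFD and 43.1 to 70.8 in CD, and the T and NK cell sum was 4.27 to 15.4 in HFD and 17.2 to 23.3 in CD, with Cd3e, Trac, Ncr1 and Klrb1c at 0 in at least 1 library. The part of these other cells in the diet differences of the 27 genes was not tested. In bulk RNA, fewer cells of a type and less RNA per cell cannot be told apart.

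No gene of the set was called between HFD and CD libraries. Diet was compared gene by gene with edgeR's quasi-likelihood test on the counts. None of the 27 genes passed an adjusted p of 0.05, and 1 of the 17367 genes tested did (0.00576%), the arginine synthesis gene Ass1, named here after its value was seen. At an unadjusted p under 0.05 there were 2 genes higher in HFD, Mbtps1 and Insig2, and 4 lower, Srebf2, Idi1, Sc5d and Stard4. The background for these counts was 5.31% of all genes higher and 7.56% lower. Their unadjusted p ran from 0.00676 to 0.0390 and their adjusted p from 0.264 to 0.362. DESeq2 called 1 of the 27 genes, Mbtps1, higher in HFD, where it called 0.823% of all genes higher. It gave no adjusted p for Insig1 (log2 fold change 1.04 by DESeq2), so that gene could not be called there. The p-values measure the spread between these libraries, which the design describes as coming from 4 mice per diet.

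By sign, 10 of the 27 log2 fold changes (HFD minus CD) were above 0 and 17 below, with a median of -0.20, against 50.8% above, 49.2% below and a median of 0.01 over all genes tested. By step in the pathway, the sign was below 0 for 6 of 8 mevalonate enzymes (median -0.33) and 9 of 9 enzymes from lanosterol to cholesterol (median -0.23). It was above 0 for 3 of 3 enzymes from squalene to lanosterol (median 0.39) and 5 of 6 control genes (median 0.47). With libraries scaled by size only, the median of all genes moved to 0.42, a shift of 0.41, and 20 of the 27 were above 0 and 7 below, with a median of 0.18. Relative to the median of all genes, that scaling left 11 above and 16 below. Against 0 it put 5 of 8 mevalonate enzymes and 7 of 9 enzymes from lanosterol to cholesterol above, yet all 9 enzymes from lanosterol to cholesterol stayed below the median of all genes, while the 3 enzymes from squalene to lanosterol and 5 of 6 control genes were above 0 as before. Without CD replicates 3 and 4 the split was 8 above and 19 below 0, and 1 of the 3 enzymes from squalene to lanosterol was above 0.

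**Figure D1:**
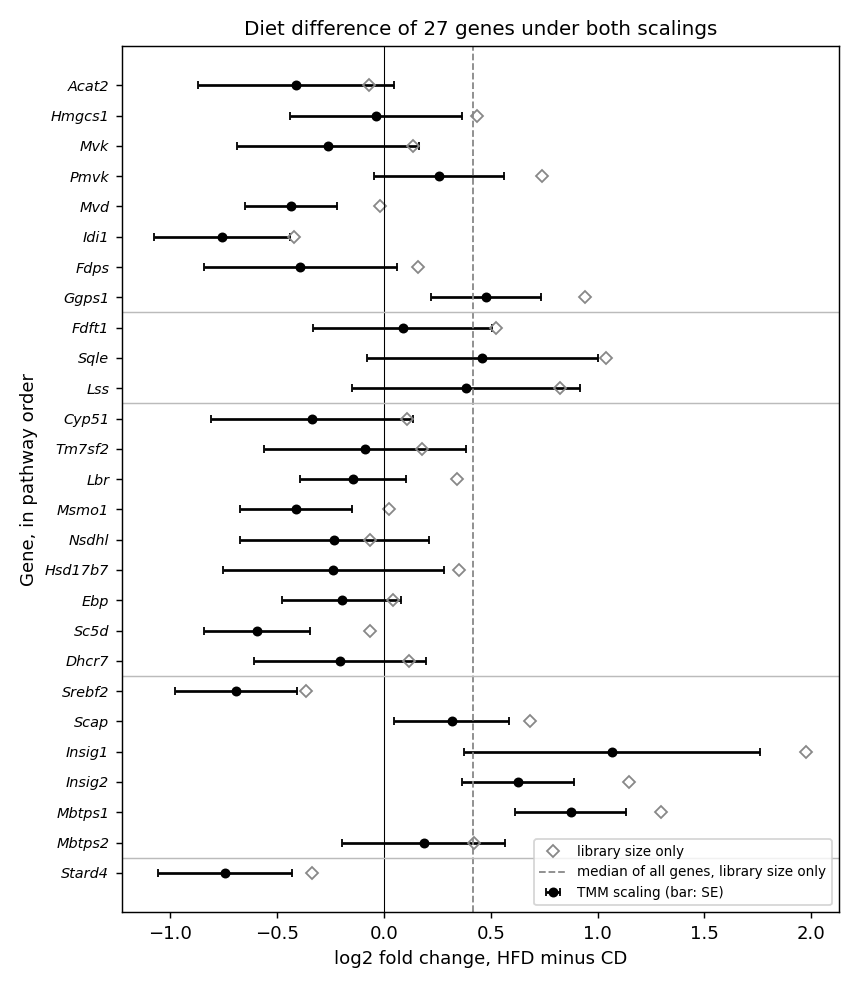
Log2 fold change (HFD minus CD) of the 27 genes on the x axis, in pathway order down the y axis: filled points with SE bars are TMM-scaled edgeR values, open diamonds are values with library size as the only scaling, and the dashed line is the median of all genes under the second scaling. The 9 enzymes from lanosterol to cholesterol lie left of 0 with TMM and left of the dashed line with library size, while Mbtps1, Insig1 and Insig2 lie right of both lines.

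The mevalonate pathway opens with Acat2, which joins acetyl-CoA units, and Hmgcs1, which makes HMG-CoA. Hmgcs1 was at 11.5, 8.78, 7.52 and 4.49 CPM in HFD replicates 1 to 4, against 12.3, 11.1, 4.51 and 5.17 in CD replicates 1 to 4. The libraries of either diet covered the same range, and the log2 fold change was -0.04 ± 0.40 (SE, edgeR adjusted p = 0.981). It was 0.44 by library size, which is 0.02 above the median of all genes under that scaling.

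Idi1 encodes the isomerase that makes dimethylallyl diphosphate. It was at 1.74, 4.36, 2.85 and 2.55 CPM in HFD replicates 1 to 4, against 5.36, 4.93, 4.61 and 4.51 in CD. The highest HFD library lay just under the lowest CD library. The mean was 2.87 ± 1.10 CPM in HFD and 4.85 ± 0.38 CPM in CD (SD, n = 4 each), with a log2 fold change of -0.76 ± 0.32 (SE, edgeR adjusted p = 0.359), or -0.42 by library size (-0.84 relative to the median of all genes).

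Mvd, which makes isopentenyl diphosphate from mevalonate diphosphate, was the gene of the set whose libraries differed least from each other in TMM-scaled CPM. It was at 7.63, 7.98, 8.38 and 8.90 CPM in HFD, against 11.6, 9.81, 12.8 and 10.1 in CD. All HFD libraries were lower than all CD libraries, with a log2 fold change of -0.43 ± 0.22 (SE, edgeR adjusted p = 0.425). By library size the log2 fold change was -0.016, which is -0.44 relative to the median of all genes in that scaling. The highest library held 1.68 times the lowest in TMM-scaled CPM, close to Lbr at 1.69. By library size Mvd ran from 6.39 to 15.4 CPM.

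Fdps, which makes farnesyl diphosphate, was at 47.5, 36.3, 14.7 and 17.8 CPM in HFD, against 57.4, 48.7, 21.7 and 24.7 in CD. Ggps1, which leads from farnesyl diphosphate to the geranylgeranyl group used to anchor small GTPases and so leaves the sterol route, had a log2 fold change of 0.48 ± 0.26 (SE, edgeR adjusted p = 0.452). Exons of Ggps1 share 257 bases with Arid4b on the opposite strand, and the protocol names no step that would tell the strands apart.

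Squalene synthase (Fdft1), squalene epoxidase (Sqle) and lanosterol synthase (Lss) form squalene and close it into the first sterol. Sqle, a rate-limiting enzyme of the sterol branch, was at 16.2, 13.6, 3.63 and 4.57 CPM in HFD, against 9.61, 9.90, 3.12 and 4.98 in CD. HFD replicates 1 and 2 were above all CD libraries, while HFD replicates 3 and 4 lay among the low CD libraries. The log2 fold change was 0.46 ± 0.54 (SE, edgeR adjusted p = 0.734), and it was -0.03 without CD replicates 3 and 4. Lss had the lowest level of the set, with 17 to 199 counts in HFD libraries and 24 to 85 in CD libraries. Fdft1 was at 8.99, 11.4, 5.96 and 4.41 CPM in HFD and 11.8, 8.52, 3.98 and 4.51 in CD, and its exons share 774 bases with the far more abundant cathepsin gene Ctsb on the opposite strand (1826413 counts over the 8 libraries, against 3412 for Fdft1).

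The enzymes from lanosterol to cholesterol were all below 0 on the log2 scale, from -0.59 to -0.09, and none passed the adjusted threshold. Sc5d, the desaturase that sets the double bond of 7-dehydrocholesterol, was at 9.49, 8.51, 7.38 and 5.29 CPM in HFD, against 11.9, 11.4, 10.2 and 12.7 in CD. All HFD libraries were lower than all CD libraries. The mean was 7.67 ± 1.80 CPM in HFD and 11.6 ± 1.04 CPM in CD (SD, n = 4 each), and the log2 fold change was -0.59 ± 0.25 (SE, edgeR adjusted p = 0.360). It was -0.063 by library size (-0.48 relative to the median of all genes) and -0.12 by log2(FPKM + 1). Cyp51, the lanosterol demethylase, was at 16.1, 25.6, 6.17 and 9.34 CPM in HFD, against 23.5, 26.5, 13.1 and 9.17 in CD, so that the diets overlapped. The other 7 genes of this step are the sterol reductases Tm7sf2, Lbr and Dhcr7, the C4 demethylation genes Msmo1, Nsdhl and Hsd17b7, and the isomerase Ebp. Tm7sf2 shares 532 exon bases with Vps51 and Cyp51 shares 166 with Akap9, so reads there could belong to either gene. Without HFD replicate 1, 2 of the 9 enzymes of this step were above 0 and 7 below. Without CD replicates 3 and 4, 1 was above 0, Lbr at 0.20, and 8 below. Within replicates 3 and 4, Tm7sf2 (0.80), Dhcr7 (0.54), Nsdhl (0.47) and Ebp (0.39) were above 0 and the others of this step below.

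Srebf2, which encodes SREBP2 (chr15:82147181-82205379, plus strand), was at 13.2, 30.1, 24.3 and 18.2 CPM in HFD replicates 1 to 4, against 33.97, 39.9, 31.3 and 33.2 in CD. All HFD libraries lay under all CD libraries, with HFD replicate 1 the lowest in this TMM scaling. By library size HFD replicate 4 was the lowest, at 13.1 CPM, and HFD replicate 1 was at 26.5. The mean was 21.4 ± 7.34 CPM in HFD and 34.6 ± 3.73 CPM in CD (SD, n = 4 each), with a log2 fold change of -0.69 ± 0.28 (SE, edgeR adjusted p = 0.352). Without HFD replicate 1 the log2 fold change was -0.51, without CD replicates 3 and 4 it was -0.79, and by library size it was -0.36 (-0.78 relative to the median of all genes).

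Mbtps1 encodes the site-1 protease, which makes the first cut in SREBP, and lies at chr8:119508156-119558735 on the minus strand. It was at 12.1, 11.6, 10.1 and 9.37 CPM in HFD, against 6.36, 7.78, 4.28 and 5.09 in CD. All HFD libraries were above all CD libraries, and HFD replicate 4 was the nearest to them. The mean was 10.8 ± 1.27 CPM in HFD and 5.88 ± 1.53 CPM in CD (SD, n = 4 each), with a log2 fold change of 0.87 ± 0.26 (SE, edgeR adjusted p = 0.264). The adjusted p was under the threshold in 3 of 21 alternative fits, with 0.0456 by DESeq2, 0.0468 with replicates 1 and 2 set apart from 3 and 4 by a model term, and 0.0157 within replicates 3 and 4, and it was up to 0.911 in the others. The last 2 of these fits called 1.03% and 11.5% of all genes higher in HFD. Without CD replicates 3 and 4 the log2 fold change was 0.61 (edgeR adjusted p = 0.911).

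Mbtps2 encodes the site-2 protease that makes the next cut. It was at 1.40, 3.33, 4.89 and 3.91 CPM in HFD, against 2.44, 3.18, 2.85 and 3.38 in CD. The diets overlapped. Mbtps2 had a log2 fold change of 0.19 ± 0.38 (SE, edgeR adjusted p = 0.860) and shares 2867 exon bases with Yy2. Scap, the escort of SREBP, was at 5.40, 6.77, 6.93 and 5.18 CPM in HFD, against 6.77, 4.76, 3.78 and 4.15 in CD. CD replicate 1 was as high as the upper HFD libraries, and the log2 fold change was 0.32 ± 0.27 (SE, edgeR adjusted p = 0.629).

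The 2 Insig genes encode the proteins that retain Scap when sterol is high. Insig2 was at 9.31, 6.10, 8.23 and 6.37 CPM in HFD, against 3.74, 5.34, 5.77 and 4.58 in CD. All HFD libraries were above all CD libraries, with a narrow gap, and the log2 fold change was 0.63 ± 0.26 (SE, edgeR adjusted p = 0.357). Insig1, itself a known SREBP target (chr5:28071363-28078662, plus strand), was at 56.8, 8.12, 6.17 and 6.15 CPM in HFD, against 10.1, 10.6, 7.83 and 8.33 in CD. HFD replicate 1 alone held 5387 counts of Insig1, while the other HFD libraries held 222 to 546 and CD libraries 229 to 619. The log2 fold change of 1.07 ± 0.69 (SE, edgeR adjusted p = 0.521) was -0.43 without HFD replicate 1 (edgeR adjusted p = 0.533). In the same library Pmvk (41.0 CPM), Sqle (16.2), Mbtps1 (12.1), Ggps1 (10.5) and Insig2 (9.31) were also the highest of all 8. Ebp (16.8 CPM), Srebf2 (13.2), Mvd (7.63), Idi1 (1.74), Mbtps2 (1.40) and Nsdhl (1.38) were the lowest of all 8 there. These low ranks rested on TMM scaling, with its factor of 2.02 for this library. By library size none of these genes was lowest there, and Mvd was the highest of all 8 (15.4 CPM). Pmvk, Sqle, Mbtps1, Ggps1 and Insig2 were the highest there by library size too.

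Stard4, which moves cholesterol between membranes through the cytosol, was at 3.15, 2.86, 3.30 and 2.16 CPM in HFD, against 5.78, 6.31, 4.05 and 3.02 in CD. CD replicate 4 lay within the HFD range. The log2 fold change was -0.74 ± 0.31 (SE, edgeR adjusted p = 0.362), and it ran over the alternatives from -1.08 without CD replicates 3 and 4 to -0.12 by log2(FPKM + 1). It was -0.34 by library size and -0.29 within replicates 3 and 4.

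The 11 genes given above with full statistics apart (Hmgcs1, Mvd, Idi1, Sqle, Sc5d, Srebf2, Scap, Insig1, Insig2, Mbtps1 and Stard4), the other 16 ran from -0.41 to 0.48 in log2 fold change. Of these, 5 were above 0 and 11 below, with edgeR adjusted p from 0.452 to 0.956.

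**Figure D2:**
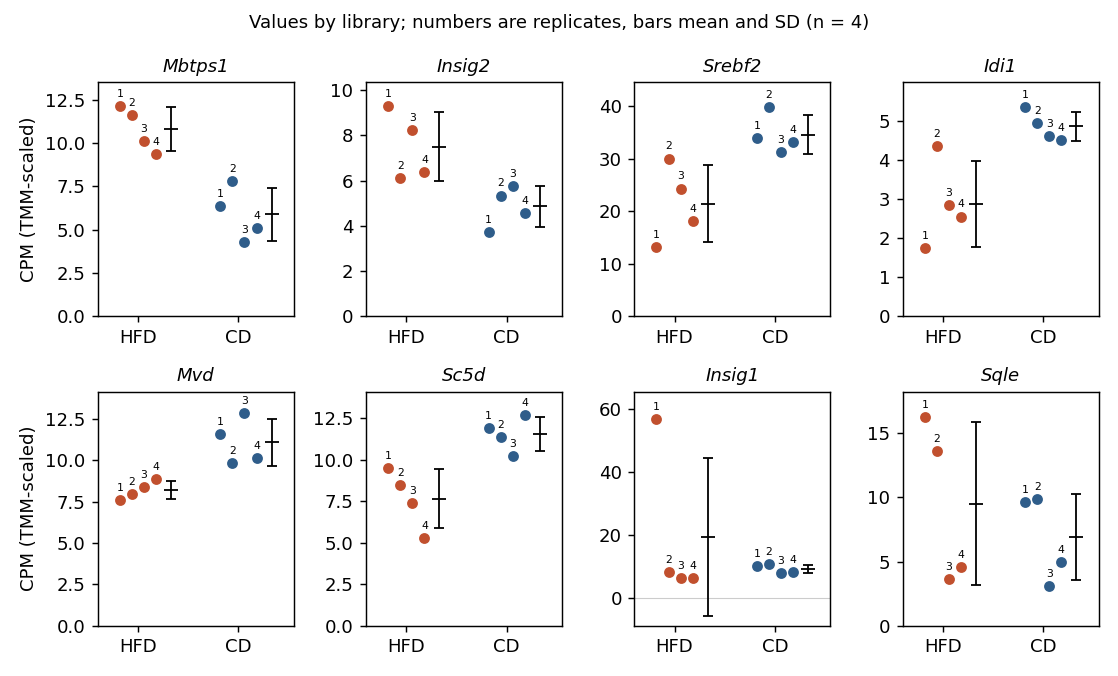
TMM-scaled CPM (y axis) of 8 of the genes by diet, HFD left and CD right, with 1 numbered point per library and the mean and SD (n = 4) beside them; each panel has its own axis. In Mbtps1 and Insig2 every HFD point lies above every CD point, in Srebf2, Idi1, Mvd and Sc5d every HFD point lies below, and in Insig1 a single HFD library reaches 56.8 CPM. With library-size CPM or FPKM the diets overlap in all 8 genes.

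In all, the diets did not overlap in TMM-scaled CPM for 2 genes higher in HFD, Mbtps1 and Insig2 (3.57% of all genes), and for 4 lower, Srebf2, Idi1, Mvd and Sc5d (4.8% of all genes). This rested on the scaling. In CPM by library size, 0 genes of the set were apart in either direction, where 3.08% of all genes were higher and 2.56% lower. In the deposited FPKM it was also 0 in either direction, with 3.4% and 2.6% of all genes. Mbtps1 in FPKM was 1.98, 1.12, 0.770 and 0.553 in HFD and 0.531, 0.689, 0.247 and 0.309 in CD, so that only HFD replicate 4 lay under a CD library.

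A ratio of genes within 1 library does not depend on how libraries are scaled. The ratio of Mbtps1 to Srebf2 counts was 0.918, 0.385, 0.415 and 0.515 in HFD libraries, against 0.187, 0.195, 0.137 and 0.153 in CD libraries. The gap between the diets follows from the TMM values, in which Mbtps1 was higher and Srebf2 lower in every HFD library, and adds nothing to them. Ggps1, Scap, Insig2 and Mbtps2 were apart in the same way, which makes 5 of the set higher and 0 lower, beside 19.9% of all genes higher and 0.766% lower by the same ratio, so that the count for the set was close to the background. The ratio of Idi1 to Srebf2 was nearly even, at 0.134 ± 0.012 in HFD and 0.141 ± 0.015 in CD (SD, n = 4 each).

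The summed level of the enzymes spread widely within each diet. The 20 enzymes summed to 239, 242, 169 and 171 CPM in HFD replicates 1 to 4, against 292, 278, 175 and 183 in CD replicates 1 to 4. Replicates 3 and 4 were lower than replicates 1 and 2 in both diets. Gene by gene, replicates 3 and 4 were both below replicates 1 and 2 of their own diet in 10 of 27 genes in both diets at once (15.2% of all genes). The 10 were Acat2, Hmgcs1, Mvk, Fdps, Fdft1, Sqle, Cyp51, Msmo1, Insig1 and Mbtps1. Srebf2 itself was not among them in TMM-scaled CPM. By library size the count was 22 of 27, with Srebf2 among them, beside 38.5% of all genes. The labels do not say what the replicate numbers stand for, and the division was known from earlier results, so these counts describe the libraries and carry no test. The sum of 12 cell cycle genes was 294 to 356 CPM in HFD libraries and 310, 316, 121 and 123 in CD replicates 1 to 4, and its part in these values was not tested.

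**Figure D3:**
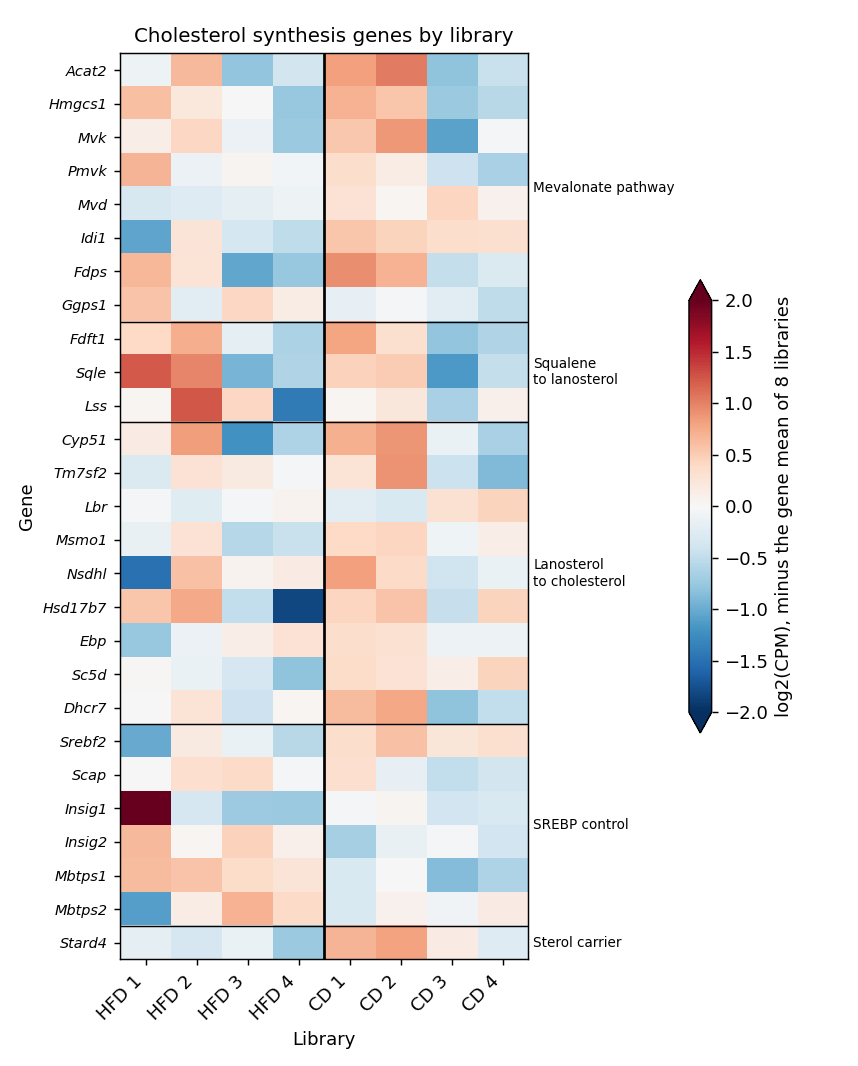
Level of each gene (down the page, in pathway order) in each library (HFD left of the black line, CD right), as log2 TMM-scaled CPM minus the mean of that gene over the 8 libraries, red above and blue below. Sqle, Fdps, Cyp51, Fdft1 and Acat2 are bluer in replicates 3 and 4 of both diets, Srebf2 and Idi1 split by diet, and Insig1 is off the scale in HFD replicate 1.

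Whether diet acted differently in replicates 1 and 2 than in replicates 3 and 4 was tested with an interaction term in edgeR. None of the 27 genes passed (adjusted p from 0.138 to 1.00), beside 3.85% of all genes, and 1 of the 27, Ebp, had an unadjusted p under 0.05, beside 21.9% of all genes. DESeq2 was not run on this term.

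Levels between genes were compared in FPKM, which corrects for transcript length, as the median over the 8 libraries. Pmvk, the phosphomevalonate kinase, stood highest at 13.2 FPKM and Ebp next at 11.1, and their ranges over libraries overlapped. Fdps followed at 6.27, Mvd at 4.32, Acat2 at 3.45, Cyp51 at 3.28 and Srebf2 at 3.09. At the low end were Mbtps1 at 0.621, Stard4 at 0.494, Mbtps2 at 0.236, Tm7sf2 at 0.234 and Lss at 0.112 FPKM. In total 2 genes had a median over 10 FPKM and 9 a median under 1. The highest library of a gene held from 1.68 times (Mvd) to 9.23 times (Insig1) the TMM-scaled CPM of its lowest.

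**Figure D4:**
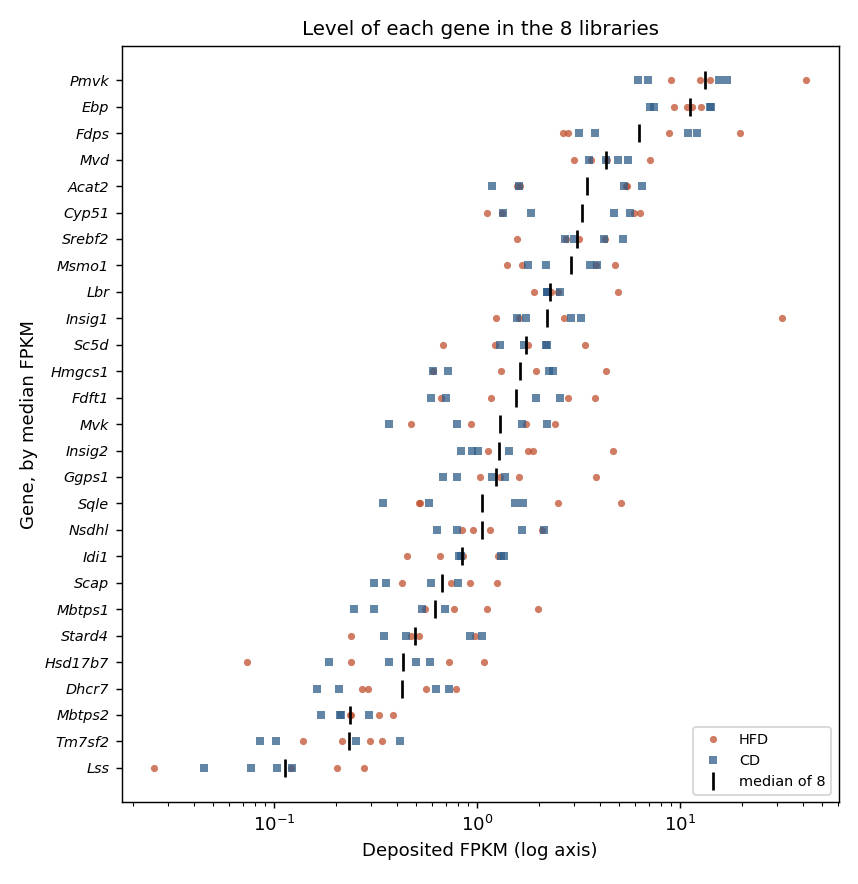
Deposited FPKM (x axis, log scale) of each gene in the 8 libraries, HFD as circles and CD as squares, with genes ordered by their median over the 8 libraries (black tick). Pmvk and Ebp lie near 10 FPKM, Lss lies near 0.1, neighbouring genes overlap, and Insig1 in HFD replicate 1 lies farthest from the other libraries of its gene.

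Genes around the pathway were taken from 5 lists, and in each of them 0 genes passed the adjusted threshold in edgeR in either direction. Of 16 genes of fatty acid synthesis and SREBP1, 11 were above 0 and 5 below (median 0.11), with 0 at an unadjusted p under 0.05. The smallest p belonged to the acetyl-CoA synthetase Acss2 (log2 fold change -0.81 ± 0.38, SE), the malic enzyme Me1 (0.83 ± 0.42) and the desaturase Fads1 (0.79 ± 0.51). Of 16 genes of sterol uptake, storage and efflux, 11 were above 0 and 5 below (median 0.30), with 2 higher and 0 lower at an unadjusted p under 0.05, beside 50.8% of all genes above 0, 5.31% higher and 7.56% lower.

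Those 2 were Gramd1a and Vldlr. Gramd1a encodes a carrier that moves cholesterol from the plasma membrane to the endoplasmic reticulum, where Scap senses it. It was at 41.2, 33.999, 42.3 and 33.4 CPM in HFD, against 22.6, 27.5, 17.99 and 20.1 in CD, with a log2 fold change of 0.77 ± 0.23 (SE, edgeR adjusted p = 0.264). All HFD libraries were above all CD libraries in this scaling (3.57% of all genes), but the diets overlapped by library size, where HFD replicate 4 was at 23.99 CPM and CD replicate 2 at 30.8. The lipoprotein receptor Vldlr had a log2 fold change of 1.00 ± 0.40 (SE), and Gramd1b, a carrier of the Gramd1a family, 0.73 ± 0.35. For Gramd1b the diets overlapped in TMM-scaled CPM, but by library size all HFD libraries were above all CD libraries (3.08% of all genes).

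Of 5 oxysterol enzymes, 4 were above 0 and 1 below (median 0.19), with 1 higher and 1 lower at an unadjusted p under 0.05, beside 5.31% and 7.56% of all genes. Cyp27a1, which makes 27-hydroxycholesterol, was at 3.48, 6.04, 10.96 and 9.42 CPM in HFD, against 4.18, 4.52, 1.29 and 2.04 in CD (log2 fold change 1.302 ± 0.48, SE). The diets overlapped through HFD replicate 1 in this scaling. By library size they did not, with 6.77 to 10.3 CPM in HFD and 0.889 to 5.06 in CD (3.08% of all genes were higher in that way). Cyp7b1, which breaks oxysterols down, stood lowest of the 5 in log2 fold change, at -2.35 ± 1.01 (SE). Its levels were 0.337, 0.0298, 0.142 and 0.222 CPM in HFD, against 0.293, 0.120, 2.02 and 1.38 CPM in CD, so that CD replicates 3 and 4 stood above all others. Cyp46a1, the cholesterol 24-hydroxylase, had 0.95 ± 1.03 (SE).

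Of 12 genes of the isoprenoid branches, 8 were above 0 and 4 below (median 0.28). The protease Rce1 was at 0.82 ± 0.49 (SE) in log2 fold change and the prenyltransferase subunit Fnta at 0.51 ± 0.31. The ubiquinone enzyme Coq2 was at -0.45 ± 0.33. Rce1 and Fnta were highest in HFD replicate 1, at 32.1 and 29.1 CPM. In the other HFD libraries Rce1 was at 7.17 to 11.03 CPM, against 6.01 to 11.06 in CD. Fnta was at 12.1 to 18.3 CPM in those HFD libraries, against 10.95 to 16.6 in CD. Of 11 genes for the turnover, transport or anchoring of SREBP, Scap or the reductase in membranes, 9 were above 0 and 2 below (median 0.23). Of these, Paqr3 was at -0.89 ± 0.45 (SE) and Erlin2 at 0.65 ± 0.34 in log2 fold change. Neither of the last 2 lists had a gene at an unadjusted p under 0.05. Medians of these lists stand beside 0.01 for all genes tested.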

How the data were processed

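RNA of 8 libraries was measured, 4 from HFD mice and 4 from CD mice, grouped by the labels. Per the labels' protocols, cDNA was primed with oligo(dT), amplified by PCR and fragmented, and the protocol names neither molecular identifiers nor strand marking. Tools named in the submitters' processing notes were StringTie 1.3.4d, HISAT2 2.0.4 and cutadapt 1.9. No build is given in the sources used here. Raw read counts per gene, not normalised by the authors, and FPKM (fragments per kilobase, scaled to library depth) computed by the authors stand side by side in 1 deposited table. Of its 42649 gene identifiers, 42502 are in GENCODE M21 (GRCm38), 39410 with the same start and end; of the 27 genes described, 24 are.

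Counts were tested with edgeR 4.0.16 in R 4.3.3 (filterByExpr, TMM, two-sided quasi-likelihood F test on diet alone, Benjamini-Hochberg over the 17367 genes kept, threshold 0.05). The scripts were tested on simulated data. Alternatives used DESeq2 1.42.0 and limma 3.58.1 (log2 FPKM + 1 or + 0.1, or voom), other scalings, no filter, libraries left out, a replicate block and the division of replicates 1 and 2 against 3 and 4. Overlaps in library-size CPM, in FPKM and in ratios to Srebf2 were added after the data were seen. The genes, lists and tests were chosen with earlier results of these data known.

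All 27 genes are named in the text or figures. Values per library are given for those with an unadjusted p under 0.05, with diets apart, called under an alternative, or in the SREBP control group, and for a few enzymes beside them (Fdps, Cyp51, Fdft1) chosen after their values were seen. Of the lists around the pathway, the 3 genes with the smallest p are named, except 1 that is not reported here.

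Same-numbered libraries of the 2 diets correlated in their deviations from the group means at 0.11 to 0.29, and libraries with the other number on the same side at 0.16 to 0.32. Libraries on opposite sides of the replicate division correlated at -0.32 to -0.13. Of the 8 libraries, 2 correlated best with the library of their own number. The same-number range was no higher than the other-number range, so these values do not show pairing by number. As the labels do not say what the numbers stand for, a fit with the number as a block was run beside the unpaired fit. The unpaired fit gives every value for which no other fit is named. Marker lists not given in the report, as summed CPM, were classical monocytes (773 to 4675 in HFD, 1487 to 24060 in CD), erythroid cells (274 to 7054 in HFD, 1664 to 19165 in CD), B cells (10.8 to 19.2 in HFD, 5.38 to 12.7 in CD), sinusoidal endothelium (18.8 to 37.4 in HFD, 19.4 to 34.1 in CD) and epithelial and MC38 cells (3.38 to 6.34 in HFD, 5.58 to 14.7 in CD). Counting error only is covered by depth: PCR copies are not independent molecules.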

Additional observations from a re-analysis of the deposited data

Results flagged for a closer look

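In each diet the highest or lowest of the 4 libraries was set against the others for each of the 27 genes, 54 groups in all, with Dixon's gap over range and its 95% critical value. Chance alone passes about 1 group in 20. Of the 54 groups, 2 passed, both through HFD replicate 1, the library with the TMM factor of 2.02. Insig1 was at 56.8 CPM there and at 6.15 to 8.12 in the other HFD libraries (gap over range 0.961). Pmvk was at 41.0 CPM there and at 23.5 to 26.5 in the other HFD libraries (gap over range 0.830).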

How the results depend on the processing

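The log2 fold changes of Mbtps1 (0.51 to 1.296), Insig2, Scap, Srebf2, Idi1, Sc5d, Mvd and Stard4 kept their sign in all 21 alternatives. Genes called lower in HFD numbered 1, against 0 by library size, by limma on log2(FPKM + 1) with and without a filter, without CD replicates 3 and 4, with the replicate block and within replicates 1 and 2, 2 by log2(FPKM + 0.1) and by voom with weights, 496 by DESeq2, 296 with no filter, 177 with the division as a term and 3310 within replicates 3 and 4. Leaving out 1 library gave 0 to 1. Genes called higher numbered 0, against 143 by DESeq2, 119 with no filter, 179 with the division as a term, 2314 within replicates 3 and 4 and 1 by voom. Of the 27 genes, 1 was called higher by DESeq2, with the division as a term and within replicates 3 and 4.

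The split of 10 above and 17 below 0 became 20 and 7 by library size, 18 and 9 by log2(FPKM + 1) with and without a filter, 19 and 8 by log2(FPKM + 0.1) and 16 and 11 within replicates 3 and 4. The median log2 fold change of -0.20 turned to 0.18, 0.085, 0.20 and 0.14 in those settings, and ran from -0.26 to 0.051 with 1 library left out, above 0 without CD replicate 2. With the replicate block, 12 of the 27 were above 0, the median was -0.11 and 0 were called.

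Hmgcs1 (-0.04) turned to 0.44 by library size, 0.035 with no filter, 0.24 by log2(FPKM + 1) with and without a filter, 0.36 by log2(FPKM + 0.1), 0.019 with the replicate block, 0.048 with the division as a term and 0.40 within replicates 3 and 4, and ran from -0.25 to 0.25 with 1 library left out. Sqle (0.46) turned to -0.031 without CD replicates 3 and 4 and -0.31 by voom. Insig1 (1.07) turned to -0.31 within replicates 3 and 4 and -0.23 by voom, and ran from -0.43 to 1.40 with 1 library left out. The cause of these turns was not tested.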
